A study of Mus musculus with 6 samples.

Results

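The dual-specificity MAP kinase phosphatases are the enzymes that switch MAP kinases off, and this account gives the transcript levels of the 10 catalytically active genes of the class in a mouse pigment cell line kept with or without neuregulin 1. The genes were Dusp1, Dusp2, Dusp4, Dusp5, Dusp6, Dusp7, Dusp8, Dusp9, Dusp10 and Dusp16, taken by symbol from probe sets annotated with exactly 1 gene, and for each gene the probe set with the highest mean over all 6 arrays was used. All 10 were measured, out of 19938 genes tested. NRG1 samples were Melan-Ink4a cells kept for 21 days with 10 nM NRG1-b1, the growth factor neuregulin 1. Untreated samples were, by their titles, the same cells without it, and each group had 3 arrays. The treatment text is the same on treated and untreated samples, so the groups rest on the titles. Melan-Ink4a is an immortal line of skin melanocytes on the C57BL/6J background, null for the Ink4a-ARF1 tumour suppressor locus, and both groups are this 1 line. Both groups also grew in serum with 200 nM TPA, a phorbol ester that activates protein kinase C, and with 200 pM cholera toxin, which raises cyclic AMP, and RNA was taken at 90% confluence. The labels name no vehicle and no culture time for the untreated samples. Whether the replicate arrays came from different cultures is not stated either, so the p-values rest on a spread that may be technical. Values are log2 signals of Affymetrix Mouse Gene 1.0 ST arrays, and a change is NRG1 minus untreated on that scale.

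MAP kinases (ERK, JNK and p38) are active when a threonine and a tyrosine of their activation loop both carry phosphate, and these phosphatases remove both. NRG1 binds the receptor ERBB3, which pairs with ERBB2 and drives ERK through RAS, RAF and MEK. Several of the phosphatase genes are themselves induced by ERK, so that they act as negative feedback, and their transcripts are often read as a sign of ERK output. By textbook grouping Dusp1, Dusp2, Dusp4 and Dusp5 encode inducible nuclear enzymes, Dusp6, Dusp7 and Dusp9 encode cytoplasmic enzymes that prefer ERK, and Dusp8, Dusp10 and Dusp16 encode enzymes that prefer JNK and p38.

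Most of the phosphatase genes differed between NRG1 and untreated cells, 5 upward by 1.21- to 1.54-fold and Dusp10 downward by 2.27-fold. Dusp1, Dusp4, Dusp6, Dusp7 and Dusp16 rose, Dusp10 fell, and Dusp2, Dusp5, Dusp8 and Dusp9 did not pass the test (limma, adjusted p under 0.05 over all genes tested). Over all 19938 genes 20.9% passed, with 12.3% higher and 8.56% lower. The 10 genes and the lists below were chosen with earlier results of these data known. Their shares called are thus descriptive and test nothing about them. The median change of the 10 genes was 0.19, beside -0.03 for all genes tested. For each of the 6 genes that passed, the 3 NRG1 arrays lay entirely on one side of the 3 untreated arrays, which held for 36.7% of all genes, and for the other 4 the groups overlapped. With 3 arrays per group the smallest p that an exact permutation test of a single gene allows is 0.1. When limma's treat test asked for more than a 1.2-fold change, Dusp1, Dusp7 and Dusp10 passed, beside 6.14% of all genes.

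**Figure D1:**
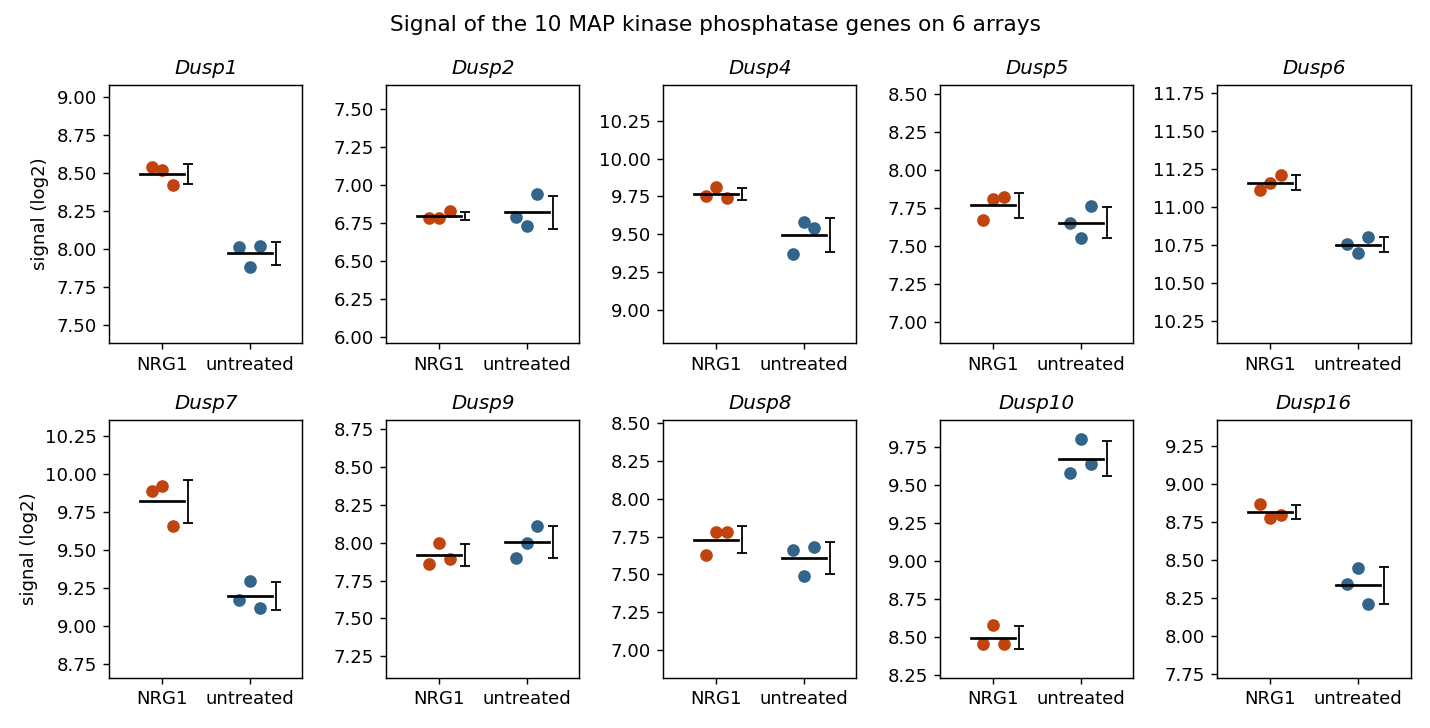
Signal on the log2 scale of each phosphatase gene on the 3 NRG1 arrays (left, orange) and the 3 untreated arrays (right, blue), with the group mean as a line and the SD as a bar. Every panel spans the same height in log2 units. The groups are apart for Dusp1, Dusp4, Dusp6, Dusp7, Dusp10 and Dusp16 and overlap for Dusp2, Dusp5, Dusp8 and Dusp9.

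RefSeq promoter windows (GRCm38.p6) were found for 8 of the 10 genes, and Dusp4 and Dusp9 were not among them. The 250 bases before the start of transcription were searched on both strands for 5 motifs linked to signalling in these cells. They were the cyclic AMP response element TGACGTCA, the AP-1 site TGANTCA, the ETS core CCGGAA, the E-box CACGTG that MITF can bind, and the FOXO site GTAAACA. None of these motifs contains another. Shown are Dusp1, which rose and holds 2 matches, Dusp7, which had the largest rise and holds none, Dusp8, which did not pass and holds 2 matches, and Dusp10, which fell and holds none. Each runs 5′ to 3′ on the strand of the gene, and capitals mark the matches.
Dusp1, chr17:26508473-26508722, minus strand: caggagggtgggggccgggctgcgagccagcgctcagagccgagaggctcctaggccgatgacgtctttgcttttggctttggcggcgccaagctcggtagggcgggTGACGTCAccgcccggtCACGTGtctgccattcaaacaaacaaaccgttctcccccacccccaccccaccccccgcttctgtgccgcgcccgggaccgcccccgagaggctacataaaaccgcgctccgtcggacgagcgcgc
Dusp7, chr9:106368382-106368631, plus strand: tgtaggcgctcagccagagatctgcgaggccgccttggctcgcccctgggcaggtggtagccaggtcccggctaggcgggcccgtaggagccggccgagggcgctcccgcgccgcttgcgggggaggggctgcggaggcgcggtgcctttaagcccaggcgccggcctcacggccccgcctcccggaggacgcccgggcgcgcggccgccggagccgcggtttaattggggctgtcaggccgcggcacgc
Dusp8, chr7:142095285-142095534, minus strand: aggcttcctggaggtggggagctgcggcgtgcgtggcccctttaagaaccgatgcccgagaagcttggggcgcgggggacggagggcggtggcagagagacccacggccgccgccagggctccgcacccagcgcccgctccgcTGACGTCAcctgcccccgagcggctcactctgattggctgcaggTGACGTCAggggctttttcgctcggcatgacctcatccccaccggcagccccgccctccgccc
Dusp10, chr1:184034131-184034380, plus strand: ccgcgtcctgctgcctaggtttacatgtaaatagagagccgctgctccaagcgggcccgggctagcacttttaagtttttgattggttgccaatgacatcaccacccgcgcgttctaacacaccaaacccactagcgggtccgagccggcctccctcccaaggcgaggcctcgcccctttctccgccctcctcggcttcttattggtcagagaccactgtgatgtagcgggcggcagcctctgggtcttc
The cyclic AMP response element was present in 2 of the 8 windows, those of Dusp1 and Dusp8, against 1.55% of the 32851 windows of all genes. In Dusp1 it began 143 bases before the start, and in Dusp8 it occurred at 107 and at 63 bases before it. The E-box was also present in 2 windows, at 126 bases before the start in Dusp1 and at 109 in Dusp2, against 6.02% of all windows. The AP-1 site, the ETS core and the FOXO site had 0 matches in the 8 windows, against 6.75%, 12% and 3.17% of all windows. Genes with a match thus included a riser, Dusp1, and genes that did not pass, Dusp2 and Dusp8. Such matches describe letters in these windows and were not tested for binding. The 8 windows were 56.4% to 77.2% G and C, above the median of 52.4% over all windows, and the shares of all windows were not matched for that. With 8 windows, 0 matches cannot be told apart from such shares.

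Among the inducible nuclear enzymes Dusp1 and Dusp4 rose, while Dusp2 and Dusp5 did not pass. Dusp1, which in most cells is an immediate early gene and whose enzyme acts on p38 and JNK as well as ERK, had signals of 8.54, 8.52 and 8.42 in NRG1 cells, against 8.01, 7.88 and 8.02 in untreated cells. The lowest NRG1 array thus lay above the highest untreated array. Its change was 0.53 ± 0.0668 (SE), or 1.44-fold (limma, adjusted p = 0.000265), and it passed under all 16 alternative settings. Dusp4, which encodes a nuclear enzyme for ERK and JNK, had signals of 9.75, 9.81 and 9.74 in NRG1 cells, against 9.37, 9.58 and 9.54 in untreated cells. Untreated replicate 1 was the low array of its group, and the groups did not overlap. The change was 0.27 ± 0.0697 (SE), or 1.21-fold (limma, adjusted p = 0.0184). The call was lost on leaving out untreated replicate 1 (0.21; limma, adjusted p = 0.083) or NRG1 replicate 2 (0.251; limma, adjusted p = 0.0666), on testing every probe set (limma, adjusted p = 0.0517), and in the treat test at 1.2-fold. Over the 16 settings its adjusted p ran from 0.00165 to 1.

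Dusp5, whose nuclear enzyme is selective for ERK, had signals of 7.67, 7.81 and 7.82 in NRG1 cells, against 7.65, 7.55 and 7.76 in untreated cells. The groups overlapped, with a change of 0.11 and a 95% confidence interval from -0.05 to 0.28 (limma, adjusted p = 0.34). Dusp2, known mainly from activated lymphocytes, had signals of 6.78, 6.78 and 6.83 in NRG1 cells, against 6.79, 6.73 and 6.94 in untreated cells. The NRG1 arrays fell inside the untreated range. Its change was -0.03, with an interval from -0.18 to 0.13 (limma, adjusted p = 0.84), and the sign turned to 0.003 after quantile normalization. Both group means of Dusp2, 6.80 with NRG1 and 6.82 untreated, lay under the array medians of the tested genes (7.11 to 7.19). Whether signals at that level understate a difference was not tested.

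Among the cytoplasmic enzymes that prefer ERK, Dusp6 and Dusp7 rose and Dusp9 did not pass. Dusp6, the phosphatase gene most often used as a readout of ERK activity, had signals of 11.11, 11.16 and 11.21 in NRG1 cells, against 10.76, 10.7 and 10.8 in untreated cells. The spread within each group (SD 0.0503 with NRG1 and 0.054 untreated, n = 3 each) was small beside the gap between them. It rose by 0.41 ± 0.0613 (SE), or 1.33-fold (limma, adjusted p = 0.00081). It passed under 15 of 16 settings, the exception being limma's treat test at 1.2-fold (adjusted p = 0.245). Dusp7, which encodes a close relative of DUSP6, had signals of 9.89, 9.92 and 9.66 in NRG1 cells, against 9.17, 9.3 and 9.12 in untreated cells. NRG1 replicate 3 was the low array of its group and still lay above every untreated array. At 0.63 ± 0.0835 (SE), or 1.54-fold, this was the largest rise of the 10 genes (limma, adjusted p = 0.000365), and it passed under all 16 settings. A rise of at least this size was seen in 682 genes, or 3.42% of those tested. Dusp9, an X-linked gene known for its role in placenta, had signals of 7.86, 8 and 7.89 in NRG1 cells, against 7.9, 8 and 8.11 in untreated cells. The groups overlapped, and the change was -0.08 with an interval from -0.24 to 0.08 (limma, adjusted p = 0.479).

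Among the enzymes that prefer JNK and p38, Dusp16 rose, Dusp10 fell and Dusp8 did not pass. Dusp10, which encodes a phosphatase of p38 and JNK, had signals of 8.45, 8.58 and 8.45 in NRG1 cells, against 9.58, 9.8 and 9.64 in untreated cells. The highest NRG1 array lay about 1 log2 unit under the lowest untreated array. The change was -1.18 ± 0.0744 (SE), 2.27-fold lower with NRG1 (limma, adjusted p = 1.84e-06). Under the 16 alternative settings the change lay between -1.23 and -1.12 and always passed. It was the 1 phosphatase gene of the 10 that was called with a change of 1 or more, which 1.93% of all genes were. Of all genes tested, 60 (0.301%) fell at least as far. Dusp16, whose enzyme prefers JNK and shuttles between nucleus and cytoplasm, had signals of 8.87, 8.78 and 8.8 in NRG1 cells, against 8.34, 8.45 and 8.21 in untreated cells. All NRG1 arrays were above all untreated arrays. It rose by 0.48 ± 0.0717 (SE), or 1.4-fold (limma, adjusted p = 0.000746), and passed under 15 of 16 settings, the exception again being the treat test at 1.2-fold (limma, adjusted p = 0.0862). The 95% confidence intervals of the changes, from -1.35 to -1.02 for Dusp10 and from 0.32 to 0.64 for Dusp16, lay on opposite sides of 0.

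Dusp8, a phosphatase gene of JNK and p38 best known from brain and heart, was the 1 gene with several probe sets, and they differed. On the brighter one, used here by rule, signals were 7.63, 7.78 and 7.78 in NRG1 cells, against 7.66, 7.49 and 7.68 in untreated cells. The groups overlapped, and the change of 0.12 had an interval from -0.05 to 0.28 (limma, adjusted p = 0.327). On the dimmer probe set, signals were 6.56, 6.72 and 6.48 in NRG1 cells, against 6.29, 5.78 and 6.12 in untreated cells. There the groups were apart, with a change of 0.53 ± 0.135 (SE; limma over all probe sets, adjusted p = 0.0472). Group means on the dimmer probe set, 6.59 with NRG1 and 6.06 untreated, lay under the array medians of the tested genes (7.11 to 7.19), so that call rests on low signals. The mean of both probe sets gave 0.321 (limma, adjusted p = 0.029), so the call for Dusp8 depends on the probe set. The sources used here do not give the exons under each probe set.

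**Figure D2:**
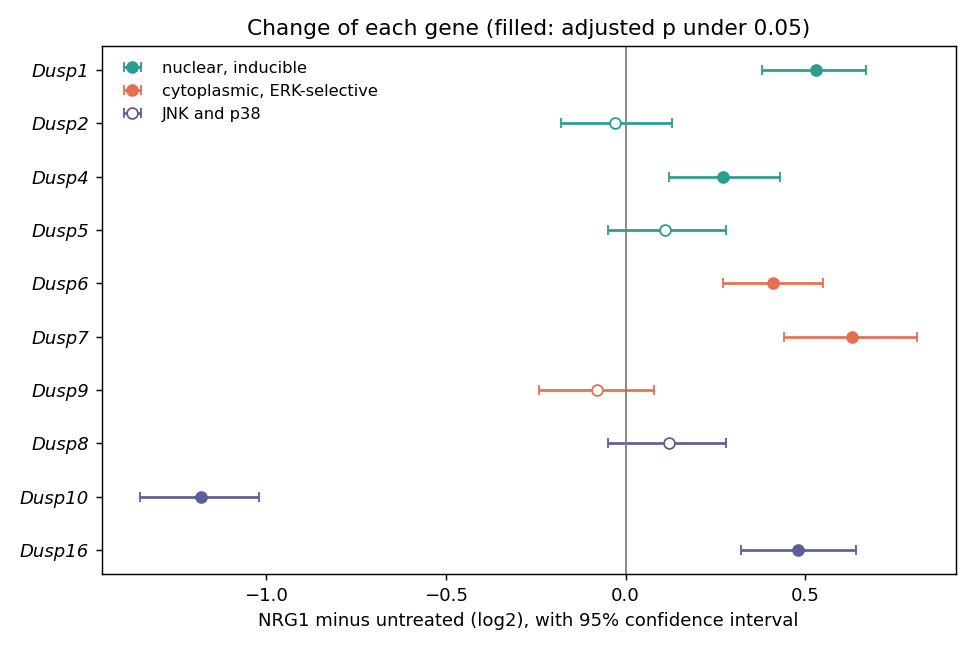
Change of each phosphatase gene, NRG1 minus untreated on the log2 scale, with its 95% confidence interval from limma. Colours give the textbook class and filled points passed at an adjusted p under 0.05. Dusp10 at -1.18 stands alone on the left, and the 5 genes that rose lie between 0.27 and 0.63.

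The 5 rises ran from 0.27 (Dusp4) to 0.63 (Dusp7). Of the 10 pairs among Dusp1, Dusp4, Dusp6, Dusp7 and Dusp16, 9 had overlapping 95% confidence intervals. The exception was Dusp7 with Dusp4 (0.44 to 0.81 against 0.12 to 0.43), and differences between the changes of the 5 genes were not tested. The median SD within groups was 0.0892 for the 10 phosphatase genes and 0.0859 for all genes tested.

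**Figure D3:**
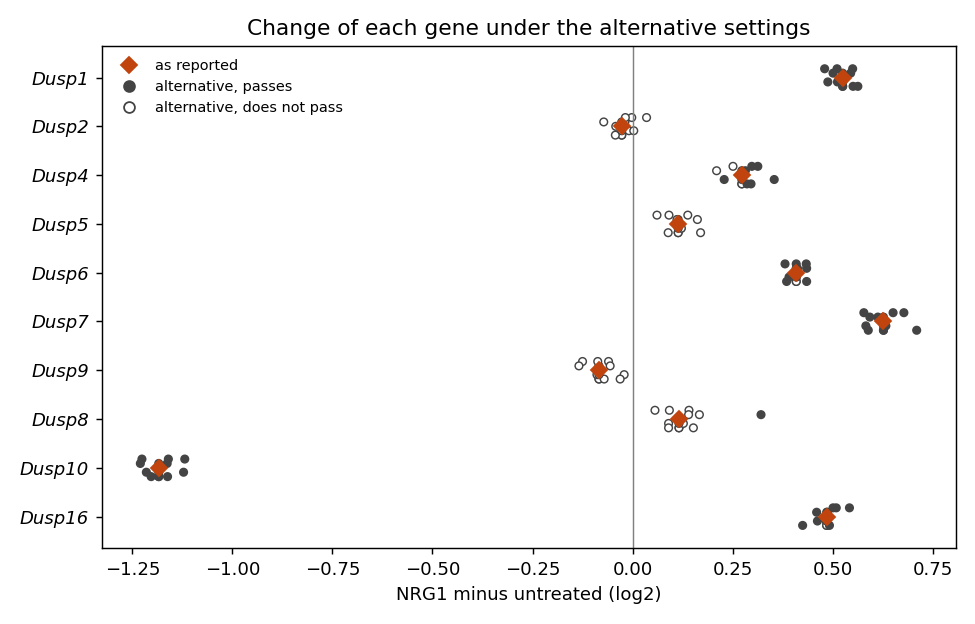
Change of each phosphatase gene, NRG1 minus untreated on the log2 scale, as reported (orange diamond) and under each alternative setting (circles, filled where the adjusted p was under 0.05). The 6 called genes keep their side of 0, with Dusp10 between -1.23 and -1.12 and Dusp7 between 0.58 and 0.71, and the filled circle of Dusp8 at 0.321 is the mean of its probe sets.

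By the rule of the smallest root mean square distance between profiles centred on their own mean, the genes most like Dusp10 over the 6 arrays were Nrbp2 (distance 0.0455), Crim1 (0.0508) and Dpy19l1 (0.0556). Nrbp2 encodes a pseudokinase, Crim1 a transmembrane protein that binds BMPs and Dpy19l1 a C-mannosyltransferase family member. Their changes were -1.18, -1.23 and -1.26. Nearest to Dusp7 were Rhoc, a small GTPase gene, at a distance of 0.0482, Mex3b, which encodes an RNA-binding protein, at 0.0483, and Colgalt1, a collagen galactosyltransferase gene, at 0.0512. Their changes were 0.61, 0.55 and 0.64. These distances describe 6 arrays in 2 groups, so they reflect mainly the size of the change.

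**Figure D4:**
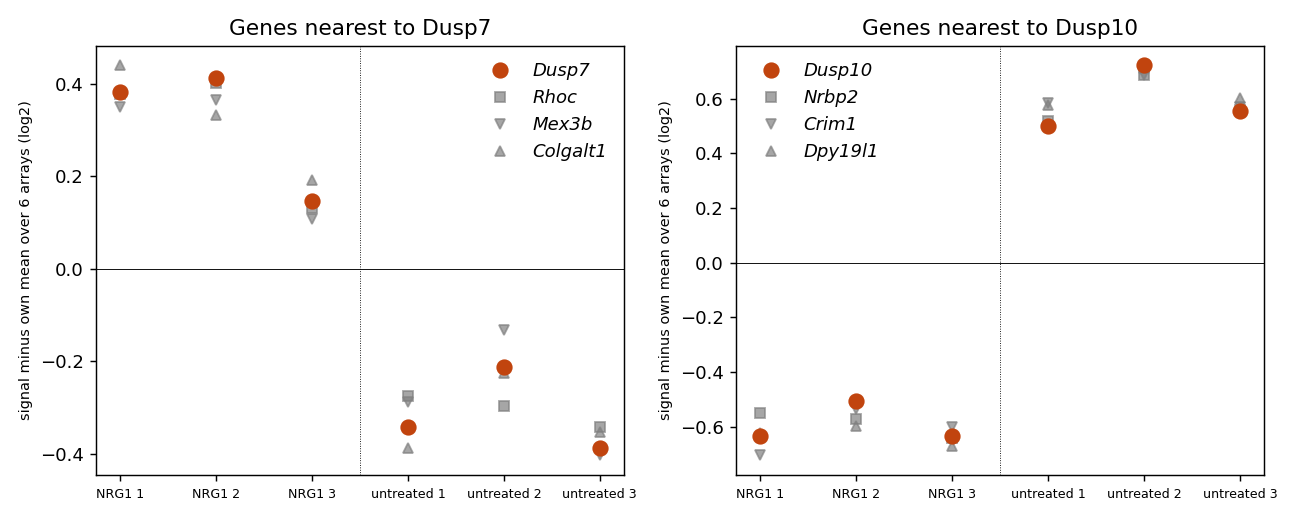
Signal minus the gene's own mean over the 6 arrays (log2) for Dusp7 (left panel) and Dusp10 (right panel) in orange, with the 3 nearest genes of each in grey. The NRG1 arrays stand left of the dotted line and the untreated arrays right of it. Dusp7 and its neighbours are above their means on the NRG1 arrays, and Dusp10 and its neighbours below.

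Other phosphatases showed smaller changes than Dusp10. Of 19 other dual-specificity phosphatase genes measured, 4 rose and 2 fell, with a median change of 0 to 2 decimals and 31.6% called, beside 20.9% of all genes. The rises included Dusp15 (0.26), Ssh2, a cofilin phosphatase gene (0.25), and Rngtt, which encodes the mRNA capping enzyme (0.24). Dusp19, which encodes an atypical dual-specificity phosphatase linked to JNK, fell by 0.53 on the log2 scale (limma, adjusted p = 8.78e-05), and the pseudophosphatase gene Styxl1 fell by 0.26. Among 8 other phosphatases known to act on MAP kinases, Ppp2ca, a catalytic subunit gene of PP2A, rose by 0.36 (limma, adjusted p = 0.00342) and Ppm1d, the WIP1 gene, fell by 0.22 (adjusted p = 0.0359), with 6 not called. The calls of Dusp15, Ssh2, Styxl1 and Ppm1d each ended under 5 or more of their alternative settings. Those of Rngtt and Ppp2ca ended only in the treat test at 1.2-fold.

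Genes of the kinase cascades on which the phosphatases act moved in both directions. In the cascade from RAS to ERK, 5 of 17 genes rose and 4 fell, with a median of -0.02 and 52.9% called, beside 20.9% of all genes. Map2k1, the MEK1 gene, rose by 0.45 ± 0.0586 (SE; limma, adjusted p = 0.000312), Nras by 0.33 and the adaptor gene Shc1 by 0.32. Rasgrp3, a RAS exchange factor that responds to diacylglycerol and phorbol ester, fell by 1.23 (limma, adjusted p = 7.21e-07), the exchange factor gene Sos1 by 0.60 and the scaffold gene Ksr1 by 0.26. The call of Ksr1 was lost on leaving out NRG1 replicate 1 (limma, adjusted p = 0.0561) and in the treat test at 1.2-fold. Map2k1 (limma treat, adjusted p = 0.0754), Nras and Shc1 did not pass the treat test either.

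In the JNK cascade 2 of 13 genes rose and 0 fell, so that 15.4% were called, below the 20.9% of all genes. The 2 were the JNK genes Mapk9 (0.41; limma, adjusted p = 0.00158) and Mapk8 (0.41; adjusted p = 0.00223). At an unadjusted p under 0.05 the JNK list had 4 higher and 1 lower (limma). In the p38 cascade 5 of 11 rose and 1 fell (54.5% called). Mapkapk3 and Mapkapk2, kinases downstream of p38, rose by 0.52 and 0.44, the p38 beta gene Mapk11 rose by 0.30, and Map3k5, the ASK1 gene, fell by 0.56 (limma, adjusted p = 8.5e-05). The call of Mapk11 ended under 5 of 15 settings. Mapk8, Mapk9 and Mapkapk2 did not pass at 1.2-fold (limma treat, adjusted p = 0.419, 0.336 and 0.16). Of 8 genes of ERK5 and the atypical MAP kinases, 0 rose and 1 fell, Nlk by 0.34 (limma, adjusted p = 0.00335), and at an unadjusted p under 0.05 the numbers were the same. The 12.5% called in that list was also below the 20.9% of all genes. Nlk did not pass the treat test at 1.2-fold. Among 9 scaffold and anchor genes 2 rose and 1 fell (33.3% called). Pea15a, which encodes a protein that keeps ERK in the cytoplasm, rose by 0.94 ± 0.0671 (SE; limma, adjusted p = 4.52e-06). Iqgap1 rose by 0.22 and Pebp1, the RAF inhibitor gene, fell by 0.21, calls that ended under 8 and 9 of 16 settings.

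The largest rises in these lists were those of other genes that ERK induces. Of 24 early and feedback genes 12 rose and 1 fell, with a median of 0.26 and 54.2% called, beside 20.9% of all genes. That list too was chosen with earlier results of these data known. The 11 that were not called had changes from -0.15 (Egr2) to 0.25 (Spred3) and included Egr3, Fosb, Junb and Phlda1. Etv5, an ETS factor gene, rose by 2.89, the AP-1 gene Jun by 1.60, the cyclin D1 gene Ccnd1 by 1.52, and the inhibitor genes Spry1, Spred2 and Spry4 by 1.30, 1.22 and 1.17 (limma, adjusted p of 2.14e-05 or less for each). Against that direction, Myc was lower by a change of -0.28 (limma, adjusted p = 0.0141). That call was lost without NRG1 replicate 3 (limma, adjusted p = 0.0611) and in the treat test at 1.2-fold. The other 6 genes of the list that rose had changes from 0.27 to 0.65, and the 5 phosphatase genes that rose from 0.27 to 0.63. Both ranges hold only called genes, and the range of the 6 leaves out the rises above 1. Their likeness was thus partly set by that choice. Differences between the changes of different genes were not tested.

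**Figure D5:**
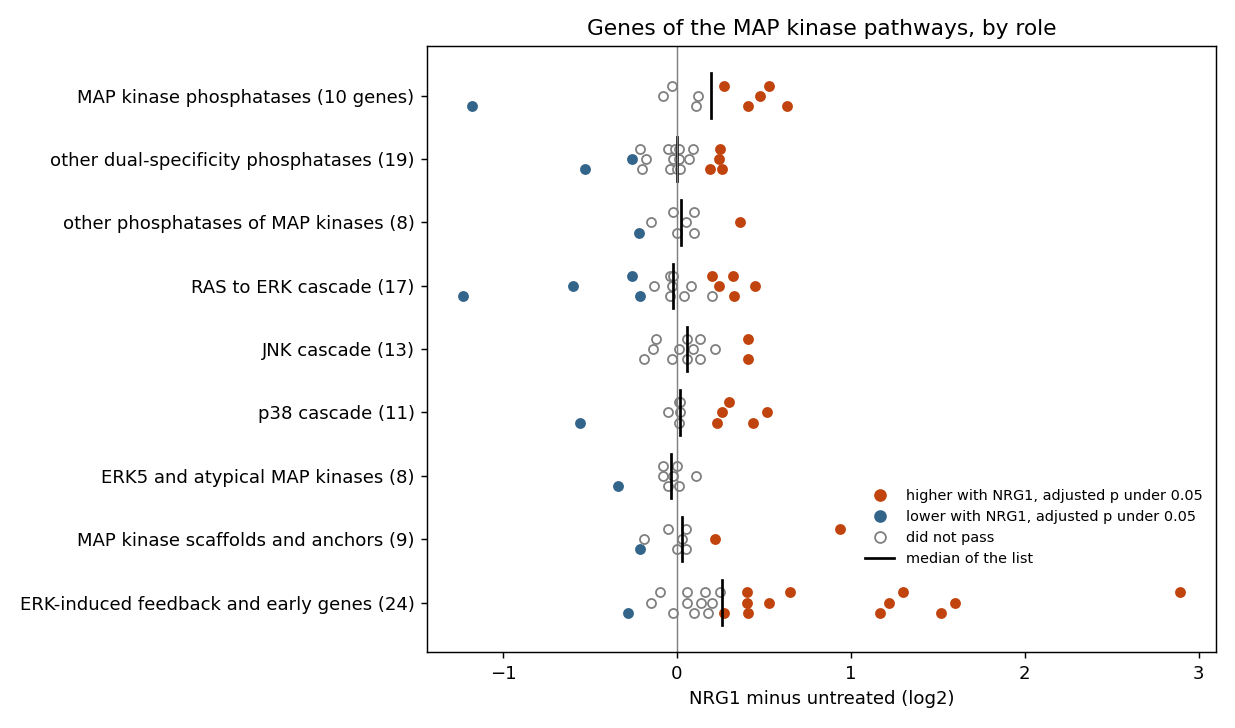
Change of each measured gene, NRG1 minus untreated on the log2 scale, for the phosphatases and for 8 lists of MAP kinase pathway genes, with the number measured in brackets. Filled points passed at an adjusted p under 0.05 (orange higher, blue lower with NRG1), open points did not, and the black line is the median of the list. Dusp10 and Rasgrp3 lie below -1, and only genes of the ERK-induced list lie above 1.

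Across the tested genes, correlations between arrays were 0.996 to 0.997 within groups and 0.981 to 0.986 between groups. Markers of melanocytes were all measured, and 9 of 10 were called lower with NRG1, beside 8.56% of all genes. Their summed linear signal was 50112 to 51512 in NRG1 cells and 71048 to 71631 in untreated cells. Of 38 markers of fibroblasts, keratinocytes, Schwann cells, immune cells and endothelium, Col1a1 (0.86), Cdh19 (0.38), Gfap (0.24) and Cd68 (0.23) were called higher with NRG1 and S100b (-0.27) lower. By list, 42.9% of Schwann cell, 14.3% of immune, 11.1% of fibroblast and 0% of keratinocyte and endothelial markers were called, beside 20.9% of all genes. The summed linear signal was 1407 to 1491 with NRG1 and 1184 to 1340 untreated for fibroblast markers, 667 to 701 and 667 to 773 for keratinocyte markers, 4716 to 4837 and 4616 to 4898 for Schwann cell markers, 642 to 656 and 611 to 647 for immune markers, and 329 to 336 and 340 to 366 for endothelial markers. Array signals have no true 0, so no marker was listed at 0. The part of these markers in the changes of the phosphatase genes was not tested, and in bulk RNA fewer cells of a type and less RNA per cell cannot be told apart.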

How the data were processed

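Total RNA (200 ng per array) from 6 samples of Melan-Ink4a cells was hybridised to Affymetrix Mouse Gene 1.0 ST arrays, per the labels. The authors deposited 1 log2 signal per probe set and array, made with RMA and GCOS (versions and settings not given), per the submitters' processing notes. The base of the log was inferred from their range (2.34 to 14.59). Of the 35557 probe sets, 21789 had 1 gene in the platform annotation, 1621 had several and 12147 were unnamed here. Symbols were updated by Entrez number to RefSeq genes of GRCm38.p6 (21698 matched). The brightest probe set of each of 19938 genes was tested, with no filter on level.

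Groups came from the sample titles, because the treatment text does not separate them. limma 3.58.1 in R 4.3.3 (lmFit, eBayes, 2 group means, 2-sided) was fitted to all genes with Benjamini-Hochberg adjustment, and a gene was called at an adjusted p under 0.05. The 10 phosphatase genes and the lists of pathway and marker genes (167 of 179 entries measured) were chosen with earlier results of these data known. Named pathway genes were the 3 largest called rises and falls per list and every called change of 1 or more. In 10 simulations over 19938 genes with the spread of the real data, 31.4% of changes of 0.3, 70.2% of 0.5, 96.4% of 1 and 100% of 2 were recovered, and 3.25% of calls were false. Only 500 changes of each size were placed over all 10 simulations, a far smaller share of genes than the 20.9% called in the real data. The adjustment depends on that share, so the simulated rates need not hold for the real data. Another background correction was not run because probe-level signals were not used here. An array has no read depth, and 3 arrays per group limit the precision (median SE 0.0708). The alternatives were other scalings, filters, probe set rules, variance priors, array weights, a replicate block, leaving out each array and a minimum change of 1.2-fold (limma treat).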

Additional observations from a re-analysis of the deposited data

How the results depend on the processing

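Under 16 alternative settings the changes of the 6 called phosphatase genes kept their sign, and Dusp1, Dusp7 and Dusp10 passed under all 16. The filters, probe set rules, variance priors, replicate block and treat test left those 6 changes the same by construction. Only another scaling, array weights and leaving out an array could move them. In limma's treat test at 1.2-fold, 2 phosphatase genes were called higher in place of 5, 14 pathway genes in place of 42 and 1225 of all genes in place of 4168; the stricter null hypothesis itself lowers these numbers. The change of Dusp2, which was never called, turned to 0.003 after quantile normalization and to 0.035 without untreated replicate 3, in a range from -0.072 to 0.035 over the fits without 1 array. Leaving out each array in turn gave 4 to 5 phosphatase genes higher, 1 lower and 3116 to 4397 genes called in all. Another scaling moved the median change of all genes by less than 0.1 (-0.029 as reported, -0.006 after quantile normalization and -0.004 after median centring).

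Whether replicate numbers pair the samples cannot be decided from these arrays. Deviations from the group means correlated at -0.095, -0.164 and 0.074 between arrays of the same number. NRG1 replicate 1 was nearest to untreated replicate 2 (0.247). For each gene the deviations cancel out within a group, so these correlations constrain each other and cannot exclude a shared culture or day. With the replicate block, 5 phosphatase genes were higher and 1 lower, as without it, and 3609 genes were called in all. The number of arrays limits what can be seen for Dusp2, Dusp5, Dusp8 and Dusp9. Whether the low signal of Dusp2 limits it further was not tested.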
